A study of Sus scrofa with 4 samples.

Results

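A set of 10 genes of the acentriolar spindle was followed in porcine oocytes at metaphase II. The genes were chosen by name from the known biology of spindle poles and spindle assembly, with earlier results of these data known. These are PCNT, CEP192, NEDD1, CDK5RAP2, NUMA1, TPX2, RAN, TACC3, CKAP5 and CLTC. All 10 were found by their gene symbol among the 16050 genes that hold values, each as a single row, and 9 of them passed the filter on low values. The oocytes came from slaughterhouse ovaries and were cultured as cumulus-oocyte complexes for 44 h, in a medium with porcine follicular fluid, EGF, insulin, kanamycin, pyruvate, cysteine, hCG and eCG that both groups received. The Control group had no added Cu, and the Cu group had copper sulfate in the medium, at 25 μg/mL in the study's general scheme. Breed, age and the number of sows were not given in the sources used here. Each library pooled 3 oocytes, so differences between single oocytes were averaged within it. The libraries analysed here were Control 1, Control 2, Cu 1 and Cu 3, and the labels do not say whether they came from separate cultures. The p-values therefore rest only on spread between these libraries, with each gene's variance drawn towards that of other genes at its level.

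Mammalian oocytes lose their centrioles as they grow and assemble the meiotic spindle without centrosomes. Microtubules then start along existing microtubules and around the chromosomes, where GTP-bound Ran frees spindle assembly factors from importins. In the mouse oocyte they also start from acentriolar organizing centres made of pericentriolar proteins. Motor and crosslinking proteins gather the microtubule minus ends into poles and bundle the fibres that hold the chromosomes. Fully grown oocytes make almost no new RNA, so the mRNA of these factors is largely a stored maternal stock.

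Expression was measured in FPKM, which divides the fragments of a gene by the length of its transcript and by library size. Amplified libraries can differ in coverage by length, which was not tested here. An order of different genes is therefore an order of their FPKM. The RNA was copied with oligo dT, and a longer poly(A) tail and more molecules cannot be told apart. As FPKM are relative to the library, an even fall of all genes, as with less RNA per oocyte, cannot be told apart from no change. The depth of the libraries is unknown. Cu 1 stood apart from the other libraries with 9364 genes at 1 FPKM or more, compared with 7923 to 8162 in the other 3. All 10 oocyte markers (GDF9, BMP15, ZP2, ZP3, ZP4, NLRP5, OOEP, DPPA3, MOS and CCNB1) were above 1 FPKM in every library, and their summed level was 9491 to 11087 FPKM. Single markers could vary far more than this sum, as BMP15 had 396 FPKM in Control 1 and 1287 FPKM in Control 2. ZP3 had 483 FPKM in Cu 1 and 88.25 to 122 FPKM in the other libraries. Of 10 markers of cumulus and granulosa cells, 7 held values, and these summed to 0.54 to 1.38 FPKM, with AMH listed at 0 in every library. Of 4 leukocyte markers 2 held values, and the sum was 0.09 to 0.31 FPKM in the other 3 libraries and 2.0 FPKM in Cu 1. The methods describe 3 sets per group, and the deposited mean FPKM of a group has, for all 16050 genes, the decimals of an average of 3 libraries. These authors' means therefore hold a further library per group that was not analysed here singly, and they are quoted beside the 2 libraries as values of a different set of samples.

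The FPKM of the 10 mRNAs spanned more than 3 orders of magnitude, from RAN at the top to PCNT near 0. The order in both Control libraries placed RAN first, then TPX2 and TACC3, then CKAP5, CLTC and NEDD1 close together, then CEP192, then CDK5RAP2 and NUMA1, and PCNT last. RAN and TPX2 together made up 57.0% to 73.6% of the summed FPKM of all 10 in a library. The ranges of CKAP5, CLTC and NEDD1 over the Control libraries overlapped, so these neighbours did not differ beyond their spread. In Cu 1 TACC3 stood above TPX2, and in the other libraries below it. CDK5RAP2 and NUMA1 also changed places, with CDK5RAP2 higher in both Control libraries and in Cu 1 and NUMA1 higher in Cu 3.

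**Figure D1:**
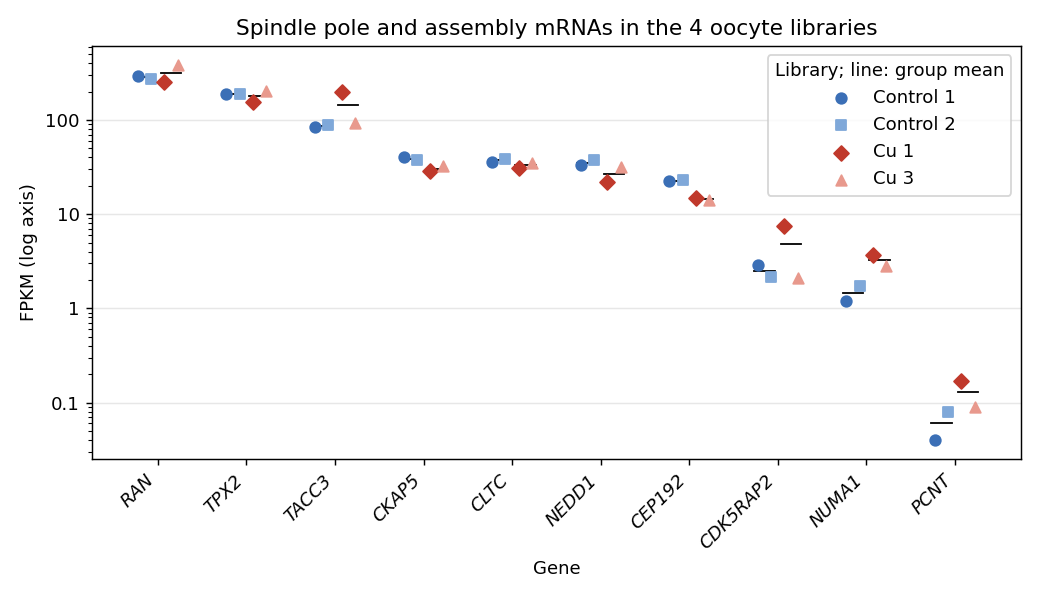
FPKM of the 10 genes (log axis) in Control 1, Control 2, Cu 1 and Cu 3, with a line at the mean of each group of 2 libraries. RAN lies between 252 and 387 FPKM and PCNT between 0.04 and 0.17 FPKM, and the Control and Cu points of CEP192 are far apart for their spread, while the Cu points of TACC3 and CDK5RAP2 lie far from each other.

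To compare the groups, log2(FPKM + 1) was tested with limma over 8541 genes, each reaching 1 FPKM in no fewer than 2 libraries. The direction is always that of the libraries labelled Cu against those labelled Control. None of the 9 tested members had an adjusted p of 0.05 or less, and neither did any other gene (0.0% of all tested genes). At an unadjusted p of 0.05 there were again 0 of 9, where 7.01% of all tested genes passed (599 genes). Values above 0 were found in 4 of the 9 log2 fold changes, beside 64.3% of all tested genes. In the 4 libraries analysed here, the groups did not overlap in 6 members, beside 38.8% of all tested genes. The Cu libraries were the lower pair in 4 of these, namely CEP192, NEDD1, CKAP5 and CLTC, and the higher pair in 2, namely NUMA1 and TACC3. Among all tested genes 13.4% were lower and 25.4% higher in this way. The groups overlapped in RAN, TPX2 and CDK5RAP2. These counts leave out the further library of each group. In CEP192, NEDD1, CKAP5, NUMA1 and TACC3 the authors' means place such a library towards the other group, as given with each gene. The median log2 fold change of the 9 members was -0.10, and that of all tested genes 0.16, a difference of -0.26 that was not tested, since the members were chosen with results known. This difference was -0.079 without Cu 1, -0.098 without the filter on low values and -0.56 without Cu 3. For a single gene the smallest p that a two-sided exact permutation test allows with this design is 0.333, and none was used.

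**Figure D2:**
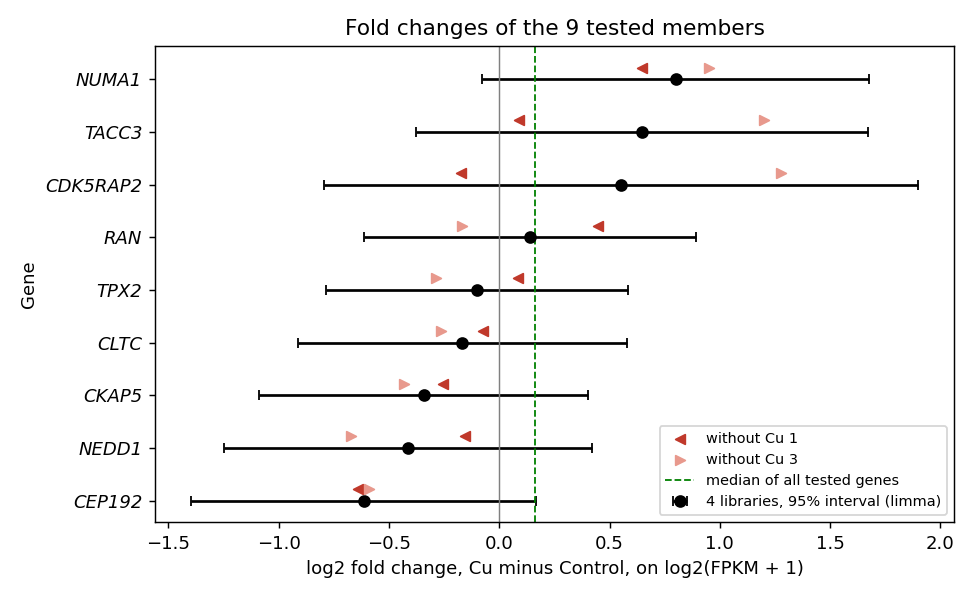
Log2 fold changes (Cu minus Control, on log2(FPKM + 1)) of the 9 tested members with their 95% intervals from limma, the same values without Cu 1 and without Cu 3, and a dashed line at the median of all tested genes (0.16). CEP192 keeps its value of -0.61 closely without either Cu library, while TACC3 and CDK5RAP2 lie near 0 without Cu 1 and above 1 without Cu 3, and all 9 intervals include 0.

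CEP192 builds the pericentriolar scaffold and brings Aurora A and Polo-like kinase 1 to it. The gene (identifier 100622752, chromosome 6, 96611560 to 96733800 in Sscrofa11.1) was measured at 22.3 and 23.2 FPKM in the Control libraries, against 14.8 (Cu 1) and 14.2 FPKM (Cu 3). Its level was lower in both Cu libraries, and the gap between the groups exceeded the distance within either (22.7 ± 0.61, SD, n = 2, Control vs. 14.5 ± 0.37, SD, n = 2, Cu). The ratio of the means was 0.638. The log2 fold change was -0.61 (SE = 0.32, 95% interval -1.40 to 0.17), with an unadjusted p of 0.103 and an adjusted p of 0.728 by limma. The standard error is larger than the spread of these 4 values because limma draws the variance of each gene towards that of other genes at the same level. Leaving out any library moved the log2 fold change only between -0.64 and -0.59. After upper-quartile scaling the unadjusted p was 0.048 at a log2 fold change of -0.78, and the adjusted p did not pass 0.05. The authors' means, with the further library, were 21.1 FPKM for Control and 15.6 FPKM for Cu, which moved the log2 fold change to -0.41. The Control mean lay below both Control libraries, and the Cu mean above both Cu libraries. The further library of each group thus lay on the side of the other group, and the wide gap is shown only for the 4 libraries. In rank among the 16050 genes, CEP192 stood at 2380 and 2402 in the Control libraries and at 3614 and 3161 in Cu 1 and Cu 3.

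NEDD1 docks the gamma-tubulin ring complex, the template from which microtubules grow, and CEP192 acts upstream of it. NEDD1 (identifier 100514234, chromosome 5, 86693802 to 86737259) had 33.3 and 37.4 FPKM in the Control libraries and 21.75 and 31.5 FPKM in Cu 1 and Cu 3. It was lower in both Cu libraries, but Cu 3 was nearer to Control 1 than to Cu 1. The log2 fold change was -0.41 (SE = 0.34, limma adjusted p = 0.800), and it was -0.16 without Cu 1 and -0.67 without Cu 3. The authors' means, with the further library, were 34.7 FPKM for Control and 32.9 FPKM for Cu, a log2 fold change of -0.071. That Cu mean lay above both Cu libraries, so the further Cu library was higher than either. A lower level of NEDD1 than in Control is therefore shown only for Cu 1 and Cu 3. The ratio of NEDD1 to CEP192 FPKM, which no scaling of a library can change, was 1.49 and 1.61 in Control 1 and Control 2, against 1.47 in Cu 1 and 2.21 in Cu 3. In Cu 1 the pair thus kept about the proportion of Control 1, and in Cu 3 NEDD1 was high against CEP192.

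CDK5RAP2 tethers gamma-tubulin complexes to the pericentriolar material and activates them. It is a weakly expressed gene in these oocytes (identifier 100737979, chromosome 1, 260465809 to 260648070), with 2.89 and 2.15 FPKM in the Control libraries, 7.48 FPKM in Cu 1 and 2.10 FPKM in Cu 3. Cu 1 alone was high, and Cu 3 lay below both Control libraries. The log2 fold change of 0.55 (SE = 0.55, limma adjusted p = 0.831) turned to -0.18 without Cu 1. Without Cu 3 it was 1.28 (limma adjusted p = 0.0196), in a fit where the single Cu library is assumed to vary like the Control libraries and where 1890 of 8297 genes passed the same limit. The authors' means were 2.24 FPKM for Control and 3.97 FPKM for Cu.

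Pericentrin, encoded by PCNT (identifier 110259171), is the large scaffold protein of acentriolar organizing centres in the mouse oocyte. Here PCNT was listed at 0.04 and 0.08 FPKM in the Control libraries and at 0.17 and 0.09 FPKM in Cu 1 and Cu 3. All 4 values were below the filter, and they stood at the 22.6th to the 27.0th percentile of the 16050 genes. No fold change is given at this level, which is close to the rounding limit of 0.01 FPKM. The RefSeq table of Sscrofa11.1 places the gene on a sequence that is not assigned to a chromosome, with 1 transcript model, and how completely that model covers the gene was not tested.

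NuMA, the product of NUMA1, gathers microtubule minus ends at the poles together with dynein. NUMA1 (identifier 100526064, chromosome 9, 6591943 to 6662966) had 1.19 and 1.71 FPKM in the Control libraries, against 3.71 FPKM in Cu 1 and 2.82 FPKM in Cu 3. Both Cu libraries were higher, in a gene with a low level throughout (1.45 ± 0.37, SD, n = 2, Control vs. 3.27 ± 0.63, SD, n = 2, Cu). The ratio of the mean FPKM was 2.25, while the log2 fold change on log2(FPKM + 1) was 0.80, because the added 1 shrinks the changes of low genes. Its standard error was 0.36 and its 95% interval -0.078 to 1.68, and the unadjusted p of 0.0672 was the smallest among the members (limma adjusted p = 0.708). With 0.1 added in place of 1 the log2 fold change was 1.13. It lay between 0.65 and 0.95 with any library left out, and at 0.54 after quantile normalization. The authors' means were 1.39 FPKM for Control and 2.49 FPKM for Cu, which gave a log2 fold change of 0.55. The Cu mean lay below both Cu libraries analysed here, so the further Cu library was lower than either. A higher level than in Control is therefore shown only for Cu 1 and Cu 3. The RefSeq table lets NUMA1 overlap IL18BP, which had 0 to 0.44 FPKM.

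RAN is the small GTPase whose GTP-bound form marks the space around chromosomes, and TPX2 is a factor that it frees from importin, which then nucleates microtubules and activates Aurora A. RAN (identifier 397655, chromosome 14, 24312810 to 24318024) had 295 and 272 FPKM in the Control libraries and 252 and 387 FPKM in Cu 1 and Cu 3. The Cu libraries lay on either side of the Control libraries, so the mean difference had no direction that both shared (283 ± 16.3, SD, n = 2, Control vs. 319 ± 95.2, SD, n = 2, Cu). Its log2 fold change was 0.14 (95% interval -0.61 to 0.89, limma adjusted p = 0.928), and it was -0.039 after upper-quartile scaling. The authors' means were 305 FPKM for Control and 308 FPKM for Cu. Processed copies of RAN exist in mammalian genomes, and whether reads were divided with them was not tested. TPX2 (identifier 100525546, chromosome 17, 35431271 to 35484814) had 191 and 189 FPKM in the Control libraries, 155 FPKM in Cu 1 and 201 FPKM in Cu 3. The Control libraries were almost equal, and the Cu libraries again lay on both sides of them. The log2 fold change was -0.10 (95% interval -0.78 to 0.58, limma adjusted p = 0.945). For TPX2 the authors' means were 193 FPKM for Control and 171 FPKM for Cu, a log2 fold change of -0.17. Aurora A kinase mRNA (AURKA), the partner of TPX2, had 649 and 572 FPKM in the Control libraries and 553 and 605 FPKM in Cu 1 and Cu 3. The ratio of TPX2 to AURKA was 0.281 to 0.332 over the 4 libraries, with the groups overlapping. The ratio of TPX2 to RAN was 0.646 and 0.694 in the Control libraries and 0.616 and 0.520 in Cu 1 and Cu 3. It was lower in both Cu libraries, though Cu 1 lay nearer to Control 1 than the Control libraries lay to each other. This is shown only for the 4 libraries, as the ratio in the further library of each group was not calculated.

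TACC3, CKAP5 (also called ch-TOG, a microtubule polymerase) and clathrin heavy chain, encoded by CLTC, form a complex that bundles the microtubules of spindle fibres. TACC3 (identifier 100513802, chromosome 8, 825433 to 835425) had 84.2 and 88.3 FPKM in the Control libraries, 199 FPKM in Cu 1 and 91.9 FPKM in Cu 3. The Cu libraries were both higher, but Cu 3 only slightly so, and the difference came almost wholly from Cu 1. Its log2 fold change was 0.65 (SE = 0.42, limma adjusted p = 0.766). It was 0.091 without Cu 1, and without Cu 3 it was 1.20 (limma adjusted p = 0.00321), in the same fit with a single Cu library as for CDK5RAP2. The authors' means were 106 FPKM for Control and 124 FPKM for Cu. The Control mean lay above both Control libraries analysed here, so the further Control library was higher than either. The log2 fold change by these means was 0.23, and the separation of TACC3 is shown only for the 4 libraries. The end of TACC3 overlaps TMEM129 in the RefSeq table, whose levels of 2.12 to 8.21 FPKM were far below those of TACC3.

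CKAP5 (identifier 100519182, chromosome 2, 15680723 to 15790580) had 40.5 and 37.2 FPKM in the Control libraries and 28.55 and 32.4 FPKM in Cu 1 and Cu 3. CLTC (identifier 100271929, chromosome 12, 35848894 to 35926028) had 36.0 and 38.3 FPKM in the Control libraries and 30.8 and 35.25 FPKM in Cu 1 and Cu 3. Both genes were slightly lower in both Cu libraries, and in CLTC the gap between Control 1 and Cu 3 was smaller than the spread within either group. The log2 fold changes were -0.34 for CKAP5 (95% interval -1.09 to 0.40) and -0.17 for CLTC (95% interval -0.91 to 0.58), with adjusted p of 0.810 and 0.916 by limma. CLTC overlaps PTRH2 in the RefSeq table, which had 4.49 to 9.87 FPKM. The authors' means were 35.7 and 31.1 FPKM for CKAP5 and 37.5 and 32.8 FPKM for CLTC, Control before Cu, which gave -0.19 for each gene on the log2 scale. The Control mean of CKAP5 lay below both Control libraries, so the further Control library was lower than either. For CKAP5 the separation is therefore shown only for the 4 libraries.

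The 3 mRNAs of the complex did not keep their proportions in Cu 1. The ratio of TACC3 to CKAP5 FPKM was 2.08 and 2.37 in the Control libraries, against 6.99 in Cu 1 and 2.84 in Cu 3. The ratio of TACC3 to CLTC was 2.34 and 2.31 in Control, but 6.48 in Cu 1 and 2.61 in Cu 3. CKAP5 and CLTC stayed near each other, with a ratio between 0.919 and 1.13 in the 4 libraries. TACC3 was thus high against its partners in both Cu libraries, far more in Cu 1 than in Cu 3. The authors' means for Control, with the further library, were 106 FPKM for TACC3, 35.7 for CKAP5 and 37.5 for CLTC. Cu 3 had 91.9, 32.4 and 35.25 FPKM for the same genes. The higher ratios of Cu 3 are therefore shown only against Control 1 and Control 2. The pairs of genes were chosen by role after the values had been seen, and no test was made of them. Clathrin light chain A (CLTA) had 151 and 111 FPKM in the Control libraries, 326 FPKM in Cu 1 and 136 FPKM in Cu 3, so that it too was highest in Cu 1. Its log2 fold change of 0.70 was 0.079 without Cu 1.

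**Figure D3:**
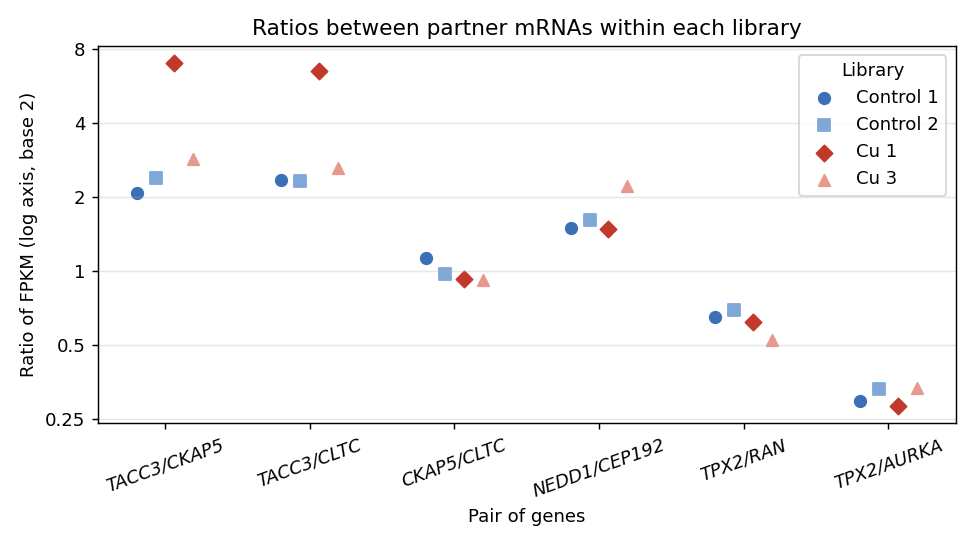
Ratios of FPKM between partner mRNAs (log axis, base 2) in each of the 4 libraries. Both ratios with TACC3 as the numerator lie at 6.48 or above in Cu 1 and at 2.84 or below in the other 3 libraries, while the ratio of CKAP5 to CLTC lies near 1 in all 4.

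The members also differed in how well the libraries of a group matched. Cu 1 and Cu 3 lay farther apart than Control 1 and Control 2 in 7 of the 9 tested members, and in 70.5% of all tested genes. The median distance on log2(FPKM + 1) for the members was 0.12 within Control and 0.37 within Cu, and for all tested genes 0.27 and 0.56. It was largest in CDK5RAP2 (1.45) and TACC3 (1.11) between the Cu libraries. For CEP192 it was 0.052 within Control and 0.048 within Cu.

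The neighbours of these factors were described from 4 further lists written from textbook knowledge. In the list of the gamma-tubulin ring and augmin (the complex that branches new microtubules from existing ones), 14 of 17 genes held values and 11 were tested. None of them passed an adjusted p of 0.05, and an unadjusted p of 0.05 was passed by 2 upward (5.58% of all tested genes) and 0 downward (1.43%). This count lay between 0 (without Control 1) and 4 (without Cu 1 or without Cu 3) with a library left out, and was 1 after upper-quartile scaling. Those 2 encode augmin subunits. HAUS1 had 45.5 and 51.0 FPKM in the Control and 88.4 and 99.0 FPKM in the Cu libraries, a log2 fold change of 0.94 (SE = 0.29, limma adjusted p = 0.641), or 0.58 by the authors' means of 59.0 and 88.5 FPKM. HAUS2 had 1.59 and 5.23 FPKM in the Control and 10.35 and 12.6 FPKM in the Cu libraries, a log2 fold change of 1.63 (SE = 0.51, limma adjusted p = 0.652), and was the only gene of the list that also reached a log2 fold change of 1.5, both limits together being met by 0 of the 9 members and by 1.87% of all tested genes. It was 0.998 without Control 1 and 2.26 without Control 2, and 0.67 by the authors' means of 6.87 and 11.5 FPKM. For HAUS1 and HAUS2 the Control mean lay above both Control libraries, so the further Control library was higher than either. Their separation is therefore shown only for the 4 libraries. HAUS5 had a log2 fold change of 0.69, which was 0.36 without Cu 1 and 0.24 by the authors' means. Of the other tested augmin subunits, HAUS3 was at -0.59 (-0.16 without Cu 1) and HAUS4 at -0.56 (-0.066 without Cu 3). HAUS6, a weakly expressed gene, was at 0.13 (-0.029 by the authors' means) and HAUS8 at 0.29 (0.11 without Cu 1). The median of the list was 0.13, and it changed its sign to -0.29 with a filter of 1 FPKM in all libraries, to -0.074 after quantile normalization, to -0.022 without Control 2 and to -0.066 without Cu 3. TUBG1, TUBG2 and MZT2B held no values in the table.

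In the list of the Ran cycle and importins, 15 of 18 genes were tested. The 3 with the smallest p were RCC1, the exchange factor that charges Ran with GTP on chromosomes, RANBP3 and the importin KPNA2, with log2 fold changes of 0.65, 0.72 and 0.49 and adjusted p of 0.709, 0.734 and 0.748 by limma. RANBP3 was at 0.37 without Cu 1, and KPNA2 at 0.28 without Control 1. RCC1, which passed the filter only through the Cu libraries, had 0.50 and 0.66 FPKM in the Control libraries and 1.48 FPKM in each Cu library, a low level against the 252 to 387 FPKM of RAN. KPNA2 had 432 and 581 FPKM in the Control libraries and 787 and 630 FPKM in Cu 1 and Cu 3. The median of the list was 0.11, and it turned to -0.12 after quantile normalization and to -0.044 after upper-quartile scaling. The Cu libraries were the higher pair in 6 of the 15 genes, RCC1 among them, and the lower pair in 0, where 25.4% and 13.4% of all tested genes were so. No gene passed an unadjusted p of 0.05, where 7.01% of all tested genes did, and 2 did without Cu 3 and 1 without Cu 1.

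In the list of centriole and pericentriolar genes, 25 of 30 were tested and the median was -0.062, which turned to 0.069 without Cu 1, 0.026 without Control 1 and 0.0021 without Control 2. No gene passed an unadjusted p of 0.05 (7.01% of all tested genes), but 4 did without Cu 3 and 2 without Cu 1. The Cu libraries were the higher pair in 4 genes and the lower pair in 4, beside 25.4% and 13.4% of all tested genes. The 3 genes with the smallest p were CENPJ with a log2 fold change of 0.75, CEP57 with -0.45 and NDE1 with 0.62 (adjusted p of 0.748, 0.751 and 0.756 by limma). CENPJ was at 0.35 without Cu 1, with an adjusted p of 0.0201 by limma at 1.14 without Cu 3, and NDE1 was at 0.24 without Control 1. CEP57, a pericentriolar protein that binds microtubules, had 186 and 180 FPKM in the Control libraries and 124 and 144 FPKM in the Cu libraries. Genes of the same structure as CEP192 did not all go with it, since CEP152 had 50.6 and 57.9 FPKM in the Control libraries and 54.1 and 47.4 FPKM in the Cu libraries, with the groups overlapping.

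In the list of spindle kinases and microtubule partners, 21 of 29 genes were tested, with a median of 0.092, which turned to -0.16 after quantile normalization, -0.072 after upper-quartile scaling, -0.067 without Cu 1 and -0.012 without Control 2. An unadjusted p of 0.05 was passed by 1 gene upward and 1 downward, beside 5.58% and 1.43% of all tested genes, and by 6 genes in all without Cu 3. STMN1, which encodes stathmin, a protein that binds free tubulin and destabilizes microtubules, had 97.4 and 101 FPKM in the Control libraries and 537 and 237 FPKM in Cu 1 and Cu 3. Its log2 fold change was 1.83 (SE = 0.43, limma adjusted p = 0.631), with 1.25 without Cu 1, 2.42 without Cu 3 and 1.83 by the authors' means of 109 and 389 FPKM. BORA, the activator of Aurora A towards Polo-like kinase 1, had 83.3 and 71.3 FPKM in the Control libraries and 37.5 and 42.2 FPKM in the Cu libraries. Its log2 fold change was -0.94 (SE = 0.30, limma adjusted p = 0.652). It stayed between -1.05 and -0.82 with a library left out, and was -0.47 by the authors' means of 63.9 and 45.9 FPKM. That Control mean lay below both Control libraries and that Cu mean above both Cu libraries. The further library of each group thus lay on the side of the other group, and the separation is shown only for the 4 libraries. CAMSAP3, which holds microtubule minus ends, had a log2 fold change of 1.18 and an unadjusted p of 0.0605, with 9.64 FPKM in Cu 1 and 1.92 to 3.31 FPKM in the other libraries. It was 0.53 without Cu 1 and 1.83 without Cu 3. With all 4 libraries, none of the 4 lists held a gene with an adjusted p of 0.05 or less. Without Cu 3, where 1890 of 8297 genes passed it, HAUS1, HAUS2, HAUS3, RANBP3, CENPJ, STMN1, BORA, CAMSAP3 and CLTA did among the genes named here, and without Cu 1, where 203 of 8054 passed it, HAUS2 and STMN1 did.

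**Figure D4:**
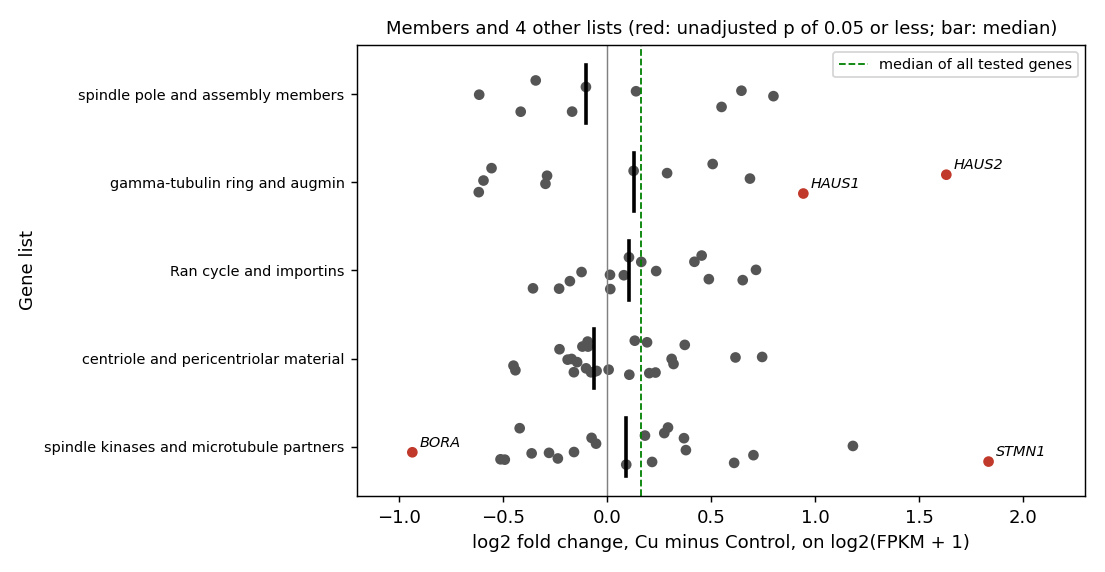
Log2 fold changes (Cu minus Control, on log2(FPKM + 1)) of the 9 tested members and of the tested genes of 4 other lists, with a bar at each median and a dashed line at the median of all tested genes. Genes in red passed an unadjusted p of 0.05, namely HAUS1, HAUS2 and STMN1 upward and BORA downward, and no member of the spindle pole and assembly set is among them.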

How the data were processed

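RNA was sequenced from metaphase II oocytes in 4 libraries, with groups and replicate numbers taken from the sample titles. The authors filtered reads with SOAPnuke, mapped them with HISAT2 and Bowtie2 and calculated expression with RSEM, while the submitters' processing notes name TopHat2 2.0.13, Cufflinks 2.2.1 and the build Sscrofa11.1. Which of these made the table is not stated. The authors deposited FPKM with 2 decimals for each library, and a mean FPKM per group, over 3 libraries by its decimals, that is quoted only as theirs. Whole reads could not be recovered, so the depth is unknown and no count-based test was run.

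Genes reaching 1 FPKM in no fewer than 2 libraries (8541) were put on the log2(FPKM + 1) scale. The groups were tested with limma (version 3.58.1, R 4.3.3), using a trended eBayes prior, and p-values were adjusted over these genes by Benjamini-Hochberg. The fit was tested on simulated data, with planted changes larger than that of any member and with no effect of a library. It therefore does not show how well changes of the size reported here are found. All 10 members were named, and from each of 4 other lists the 3 genes with the smallest p and any gene within an unadjusted p limit of 0.05 whose log2 fold change reached 1.5 in size. The alternatives were a pseudocount of 0.1, other filters, quantile and upper-quartile scaling, no variance trend and leaving out each library, for the members and the lists. AURKA, CLTA, HAUS3, HAUS4, HAUS6, HAUS8 and CEP152 were named after their values were seen. The members and lists were chosen with earlier results of these data known. Gene positions come from the RefSeq table of Sscrofa11.1, in which all 10 members were matched by identifier. A description of fold change by protein length had been planned and was not made here.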

Additional observations from a re-analysis of the deposited data

How the results depend on the processing

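No paired analysis was possible because the groups share only replicate number 1. No member passed an adjusted p of 0.05 in any setting with all 4 libraries. The median log2 fold change of the members was -0.0049 without the filter on low values (PCNT included), -0.26 after quantile normalization and -0.28 after upper-quartile scaling. These scalings brought the median of all genes from 0.16 to -0.049 and 0.014, and the members minus all genes gave -0.21 and -0.29. This difference was -0.26 as reported, -0.098 without the filter, -0.079 without Cu 1 and -0.56 without Cu 3. With each library left out, the median of the members was -0.26 to -0.073. An unadjusted p of 0.05 was passed by 1 member with a filter of 1 FPKM in all libraries (NUMA1), by 1 after upper-quartile scaling (CEP192) and by 0 to 4 with a library left out, with 4 when Cu 3 was missing (TACC3, CDK5RAP2, NUMA1 and NEDD1). With each library left out, CDK5RAP2 lay between -0.18 (without Cu 1) and 1.28 (without Cu 3), TPX2 between -0.29 (without Cu 3) and 0.084 (without Cu 1), and RAN between -0.17 (without Cu 3) and 0.45 (without Cu 1). RAN was also -0.039 after upper-quartile scaling. CEP192, NEDD1, CKAP5, CLTC, NUMA1 and TACC3 kept their direction in every setting. The medians of all 4 other lists changed their sign under at least 1 setting, as given with each list. The comparison by the authors' means and the median without RAN (-0.13) were chosen after seeing the data. A fit without one library has a single library in a group, whose spread is taken from the other group.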
